A study of Mus musculus with 8 samples.

Results

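Long cassette exons are exons of 300 nt or more that are present in some transcripts of a gene and skipped in others. They were taken from the tables of cassette exon events of mouse spermatocytes and round spermatids, with the length read as the inclusion form length minus the skipping form length. Each exon (chromosome, strand, start and end) was counted once. Of 45500 cassette exons, 2220 were of this length (4.88%), in 1855 host genes. There were 1856 of them in the spermatocyte table, 1412 in that of round spermatids and 1048 in both.

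The cells came from testes of adult C57BL/6 mice and were separated by flow sorting after Hoechst staining of their DNA. Spermatocytes are the germ cells in meiosis and round spermatids are the haploid cells that follow them. Per stage there were 2 libraries labelled Larp7 knock-out and 2 labelled Wildtype, so 8 libraries of polyA RNA in all. The series calls the knock-out conditional, and the sources used here do not give the Cre driver or the cells in which it acts. The labels call the libraries biological replicates without tying each to its own animal, so p-values concern these libraries and not animals. Permutation p-values compare library means. Those for single exons rest on a spread modelled across events, as described with that test.

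The table headers number the groups of libraries and do not give their genotype. Results within a stage are therefore given for the first and the second sample group, without a genotype. The stage of each table is labelled, so the comparison of spermatocytes with round spermatids carries its direction.

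An internal exon of a mammalian gene is usually much shorter than 300 nt. The splicing machinery pairs the splice sites on both sides of an exon across its length, and SR proteins bound within the exon help it to do so. Some long cassette exons hold most of the coding sequence of a protein. Others are known as poison exons, which bring a premature stop codon into the transcript and lead to its decay, and genes of SR proteins are known for them. In the testis splicing patterns change during meiosis and afterwards. The protein Larp7 binds the 7SK RNA, a regulator of transcription elongation, and also takes part in the modification of U6 snRNA, a core RNA of the spliceosome.

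The bases around the start of an exon show where the splice acceptor lies. They could be read for the 28 long exons whose start fell inside a RefSeq promoter window (GRCm38.p6, the same coordinates as mm10; 250 bases before to 50 after a gene start). All 28 had the dinucleotide AG just before the first exon base, the end of a splice acceptor. A cassette exon is spliced at its start by definition, so an AG there follows from how the exons were chosen. In 14 of the 28 the first exon base was itself a RefSeq gene start, and all 14 had the AG. Of the 32851 RefSeq promoter windows, 6.07% had AG just before the gene start, on the gene's own strand. Of these, 8 are shown because they put an acceptor at an annotated gene start, or, in Hnrnpl, 218 bases before one, with 20 intron bases in lower case and the first 10 exon bases in capitals, 5′ to 3′.
Nsun6, chr2:15049303-15049332, minus strand: gccggaagtgacgaacccagGAAGCGACTT
Wdr4, chr17:31512478-31512507, minus strand: cggcacacaatgagtaccagACCCCGTCCA
Sec24a, chr11:51756825-51756854, minus strand: aattctcttgcactctacagCTGGCATAGC
Ccser2, chr14:36941255-36941284, minus strand: taatctttttcttccctcagATTCTGTCAA
Lats2, chr14:57734409-57734438, minus strand: tgtcccattttctttttcagAGAGTGATGG
Zfp541, chr7:16071825-16071854, plus strand: acgtccttgttcattttcagGAGCTAGCTG
Egln2, chr7:27165719-27165748, minus strand: cttccttttctcttttccagCCACCCCCAT
Hnrnpl, chr7:28810652-28810681, plus strand: aaatcagagtttattttaagGAGGTGGGGC

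In Egln2, which encodes an oxygen-sensing prolyl hydroxylase, 18 of the 20 intron bases were pyrimidines, the most of the 28 exons. In Nsun6, which encodes an RNA methyltransferase, 7 of the 20 were, the fewest, and the median of the 28 was 13. The median over the 20 bases before the gene start of all promoter windows was 10. These medians are a description and were not tested, as the exons were chosen as spliced at their start. Long exons held a RefSeq gene start more often than shorter cassette exons, 34 of 2220 (1.53%) against 0.282%, a description of 2 exon classes of unequal length. Reads of a transcript that starts inside such an exon count as inclusion, and they cannot be told apart from spliced inclusion in these tables.

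The typical long cassette exon was 520 nt long, with 25% below 373 nt and 10% above 1533 nt, against a median of 114 nt for the cassette exons under 300 nt. There were 447 exons of 1000 nt or more and 118 of 2000 nt or more. Among the longest were the 9265-nt exon of Xirp2, a muscle protein gene, the 8367-nt exon of Unc13b, a regulator of vesicle release, and the 8104-nt exon of Map1a, which encodes a microtubule-binding protein. Next came the 8020-nt exon of the transcriptional repressor gene Spen, the 7978-nt exon of Fam186a and the 7674-nt exon of Ank3, which encodes a membrane-skeleton adaptor. The Xirp2 exon had 9 reads in all and was not tested. Overlapping exons such as alternative ends of 1 exon share reads, and the 2220 exons formed 2097 stretches that do not overlap. A length divisible by 3, which keeps the reading frame, was found in 38.7% of long exons in spermatocytes and in 38.9% of shorter ones. In round spermatids the shares were 40.7% and 40.3%.

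Most long cassette exons were included in nearly all transcripts. The inclusion level is the length-normalised share of reads that come from transcripts with the exon. Of 1786 long exons with at least 10 reads per library on average in spermatocytes, 1328 (74.4%) had a mean level of at least 95%. Another 245 (13.7%) lay between 10% and 90%, and 63 (3.53%) lay under 10%. In round spermatids 946 of 1332 (71.0%) were at 95% or more, 198 (14.9%) lay between 10% and 90% and 69 (5.18%) under 10%. Shorter exons reached 95% somewhat more often, 77.0% of them in spermatocytes and 73.7% in round spermatids. Between 10% and 90% lay 11.7% and 13.8% of the shorter exons, and under 10% lay 5.81% and 7.04%. The evidence for skipping was often thin: 975 of 1856 exons in spermatocytes (52.5%) and 751 of 1412 in round spermatids (53.2%) had at most 4 skipping reads over the 4 libraries. Of shorter exons, 53.2% and 52.2% did.

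**Figure D1:**
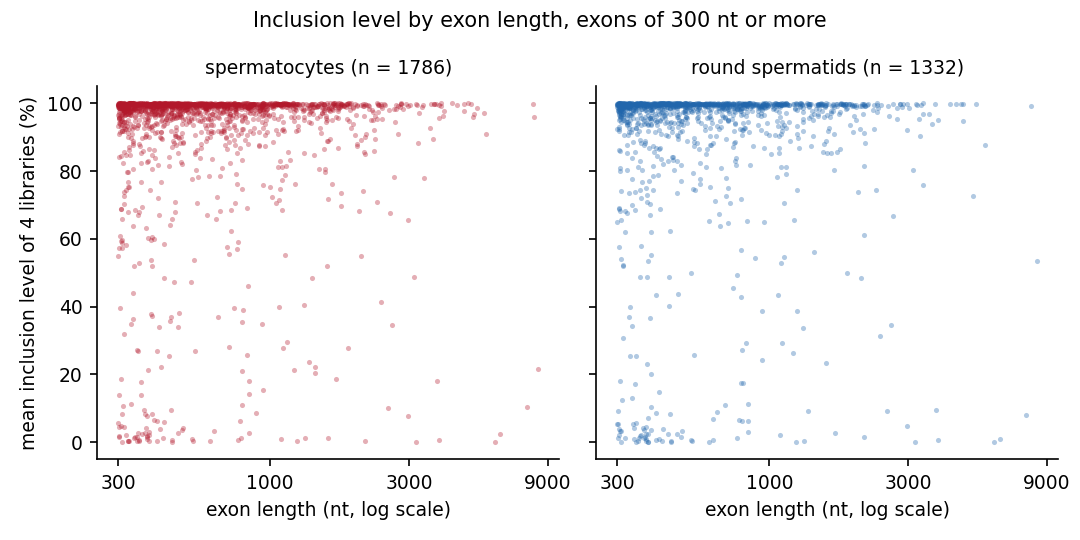
Mean inclusion level over the 4 libraries of a stage (vertical axis, percent) against exon length (horizontal axis, nt, log scale); each point is 1 long cassette exon with at least 10 reads per library on average, 1786 in spermatocytes and 1332 in round spermatids. Most points lie near 100% at every length, and a thin band lies near 0%.

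The mean level differed by length class. In spermatocytes it was 89.0% for the 838 exons of 300 to under 500 nt, 93.1% for the 580 from 500 to under 1000 nt, and 91.7% for the 266 from 1000 to under 2000 nt. The 102 longer exons averaged 84.5%. The round spermatid means in the same order were 87.2%, 91.5%, 91.2% and 80.6%. The classes hold different genes, and the order was not tested.

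Across all 8 libraries long exons had a higher mean inclusion level than shorter cassette exons, 89.6% against 87.5%. The difference was 2.11 percentage points and had the same direction in 8 of 8 libraries (exact two-sided sign permutation over libraries, p = 0.00781, the smallest possible). The same exons are averaged in each library of a stage, so this p-value does not measure the spread between exons or genes. With the median in place of the mean the difference was -0.0737 points (exact sign permutation, p = 0.219), so the direction holds for the mean only. Inclusion reads grow with exon length, since they include reads within the exon, and the length normalisation corrects for this only as far as coverage is even.

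Just at the length limit, the 11 exons of 300 nt in spermatocytes ranged from 5.57% to 99.9% with a median of 99.2%. The 4 exons of 299 nt ranged from 63.9% to 99.9% with a median of 95.3%. In round spermatids 8 exons of 300 nt with enough reads had a median of 99.3% and 3 of 299 nt a median of 96.9%.

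Between stages, the mean level of long exons was slightly lower in spermatocytes. Over 961 long exons measured in both stages, the 4 spermatocyte libraries averaged 84.8% and 84.6% (first group) and 86.0% and 85.9% (second group). The round spermatid libraries averaged 86.3% and 86.1% (first group) and 87.0% and 86.6% (second group). All 4 round spermatid libraries lay above all 4 spermatocyte libraries. The means were 85.3% and 86.5%, a difference of -1.15 points (exact two-sided permutation, 4 against 4 libraries, p = 0.0286, the smallest possible). The 18395 shorter exons differed by -0.516 points (exact permutation, p = 0.171). The difference of these 2 differences was -0.63 points (exact permutation, p = 0.0286). With at least 20 reads per library the long-exon difference was -0.924 points (exact permutation, p = 0.0571), which no longer passed. The difference also missed 0.05 without either library of the first spermatocyte group or any of the 4 round spermatid libraries, with exact permutation p-values of 0.0571 to 0.114.

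**Figure D2:**
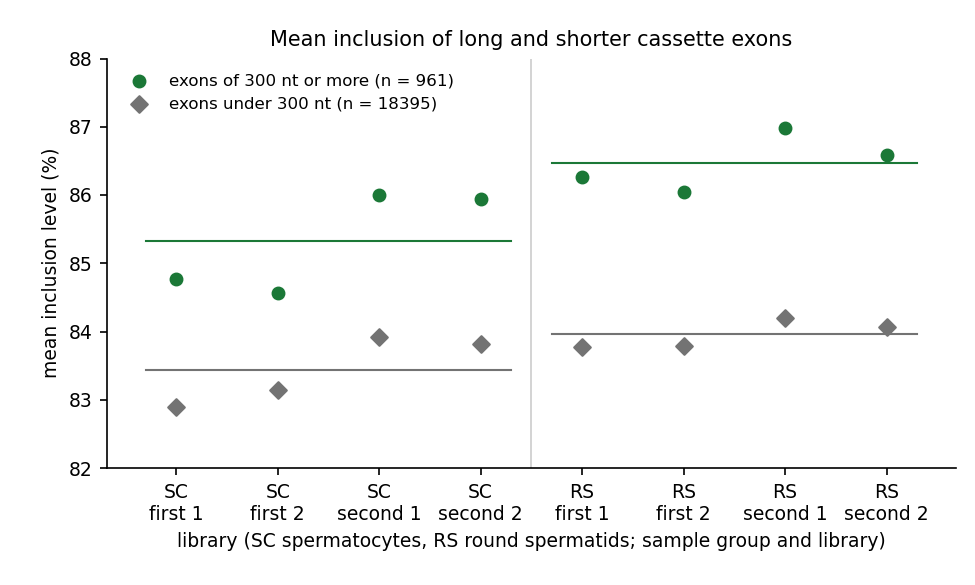
Mean inclusion level (vertical axis, percent, axis from 82 to 88) in each of 8 libraries for 961 long exons (circles) and 18395 shorter exons (diamonds) measured in both stages; horizontal lines are the means of the 4 libraries of a stage. Long exons lie above shorter ones in every library, and their round spermatid values, from 86.1% to 87.0%, lie above their spermatocyte values.

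The sorted stages carried their markers. Expression was read from the most-read event of each gene and scaled to the library total of such reads (CPM), so genes without an event are not measured. The 9 spermatocyte markers summed to between 2164 and 3456 CPM in spermatocytes and between 663 and 901 in round spermatids. Ccna1 of this list was not lower in round spermatids, at 332 to 532 CPM against 301 to 459 in spermatocytes. Of 8 round spermatid markers, 4 had an event in round spermatids, summing to 1150 to 1458 CPM, and 3 in spermatocytes, summing to 32.8 to 59.7. The 4 measured elongating spermatid markers of 5, the stage after round spermatids, summed to 12909 to 20621 CPM in round spermatids and 2068 to 3014 in spermatocytes. Within spermatocytes the 7 spermatogonial markers, of the earlier stage, summed to 233 and 60.5 CPM in the first group against 19.2 and 25.1 in the second. The 4 measured Sertoli markers of 6, of the supporting cells, summed to 205 and 135 against 40.9 and 69.2. Their part in the results below was not tested. In such bulk samples fewer cells of a type and less RNA per cell cannot be told apart. The depth over the long exons ranged from 2856630 to 5655393 reads in the spermatocyte libraries, and the round spermatid libraries had 2833175 to 5525806 reads there, highest in the second library of the first group in both stages.

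Single exons were tested on the log2 odds of inclusion with limma. Benjamini-Hochberg adjustment was over all events of the 5 event types, and an exon was called at an adjusted p below 0.05. The variance of each exon was drawn to a trend over events with similar reads of the rarer form, inclusion or skipping. A very small p-value thus rests on that trend and on read counts, and hardly on the exon's own spread between libraries. Between stages 993 of 1017 long exons present as the same event in both tables passed the filter. Of these 146 were called (14.7%), in 135 host genes, against 12.5% of all 34455 events tested and 10.9% of the shorter cassette exons tested. In spermatocytes 49 were higher and 97 were lower, where all events gave 5.96% higher and 6.5% lower. The called shorter cassette exons also leaned this way, with 771 higher and 1364 lower, so the lean is not particular to long exons. The median difference of the 993 was -0.28 on the log2 odds scale, beside -0.17 for the shorter exons. A difference of at least 10 points was reached by 52 of the 146, 21 higher and 31 lower in spermatocytes, and in 44 of the 52 the libraries of the stages did not overlap. Without the second library of the first round spermatid group the count was 77, and without the second library of the second round spermatid group it was 95.

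The share of long exons called differed by inclusion level. Of 61 exons with a mean level under 10%, 23 were called, 18 of them higher in spermatocytes. Of 221 between 10% and 90%, 50 were called, 20 higher and 30 lower. Of 612 exons at 95% or more, 57 were called, 9 higher and 48 lower. Exons of a length divisible by 3 were called about as often as the rest, 61 of 410 against 85 of 583. Of 117 host genes of called long exons that also had a tested shorter cassette exon, 54 had a called shorter one (46.2%), against 155 of 548 host genes without a called long exon (28.3%). These shares are descriptions and were not tested. No share of shorter exons or of all events in the same classes is given, so they cannot be called particular to long exons.

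The largest difference lay in the 1140-nt exon of Eef1d (chr15:75902679-75903818, minus strand), which encodes a subunit of a translation elongation factor. Its inclusion level was 26.0%, 27.9%, 22.2% and 41.9% in the spermatocyte libraries, first group before second. In round spermatids it was 89.8%, 92.4%, 93.7% and 95.4%. The exon thus passed from mostly skipped to mostly included, a difference of -63.3 points (log2 odds -5.09, SE 0.16, limma adjusted p = 5.74e-208). It rested on 2040 skipping reads over 8 libraries.

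The 391-nt exon of Baz2a (chr10:128092460-128092850, plus strand) went the other way. Baz2a encodes a subunit of a chromatin remodelling complex that acts at ribosomal RNA genes. Its levels were 83.3%, 73.5%, 76.5% and 88.7% in the spermatocyte libraries, and 23.5%, 19.7%, 13.2% and 23.6% in the round spermatid libraries. The level was 60.5 points higher in spermatocytes, with a log2 odds difference of 3.997 (SE 0.36, limma adjusted p = 9.65e-26).

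A 482-nt exon of Nmrk1 (chr19:18638918-18639399), which encodes a kinase of NAD synthesis, showed a difference close to that of Eef1d in points. Its spermatocyte levels were 27.2%, 24.7%, 45.3% and 38.6%. In round spermatids the first library had 86.2% and the other three 100%. It rested on only 37 skipping reads over 8 libraries, and the adjusted p was 2.66e-05 with limma and 1 with a quasi-binomial model.

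The 895-nt exon of Lmbr1 (chr5:29364921-29365815), a membrane protein gene, was nearly absent in spermatocytes at 7.95%, 7.56%, 5.25% and 13.6%. In round spermatids it was in about every other transcript, at 48.1%, 52.0%, 53.6% and 63.6%. The 391-nt exon of Nsun6, whose start is printed above, had 41.9%, 63.1%, 65.9% and 37.6% in spermatocytes and 13.4%, 4.49%, 14.6% and 8.93% in round spermatids. No library of one stage overlapped the other in either gene. The limma adjusted p was 6.55e-41 for Lmbr1 and 5.93e-10 for Nsun6.

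Other exons higher in round spermatids were a 1430-nt exon of Sbno2, a transcriptional co-regulator gene, with 14.2% to 31.6% in spermatocytes and 41.2% to 76.8% in round spermatids. Nptn, which encodes the adhesion molecule neuroplastin, had a 348-nt exon at 0% to 3.04% in spermatocytes and 24.7% to 26.2% in round spermatids. The 2583-nt exon of Tnrc6a, a gene of microRNA silencing, lay at 60.9% to 74.4% in spermatocytes and 91.6% to 100% in round spermatids, on 89 skipping reads. The Tnrc6a call was lost without 6 of the 8 libraries in turn, with an adjusted p of up to 0.298 without the first library of the second round spermatid group. Of the uncharacterised gene 4933408J17Rik, a 472-nt exon lay between 49.4% and 81.8% in spermatocytes and between 89.5% and 100% in round spermatids. That call was lost without the second library of the first spermatocyte group (adjusted p = 0.0628), and that of Nptn without the second library of the second spermatocyte group (0.198).

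Exons higher in spermatocytes included a 337-nt exon of Vav1, a guanine nucleotide exchange factor best known from lymphocytes. Its levels were 32.6%, 42.9%, 54.8% and 46.3% in spermatocytes and 11.5%, 19.2%, 13.3% and 8.42% in round spermatids (limma adjusted p = 1.46e-08). The 1563-nt exon of Rab11fip1, a gene of endosome recycling, had 32.4% to 66.4% against 16.3% to 30.9%, groups that barely part. Its call was lost without the second library of the first round spermatid group (adjusted p = 0.0819).

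**Figure D3:**
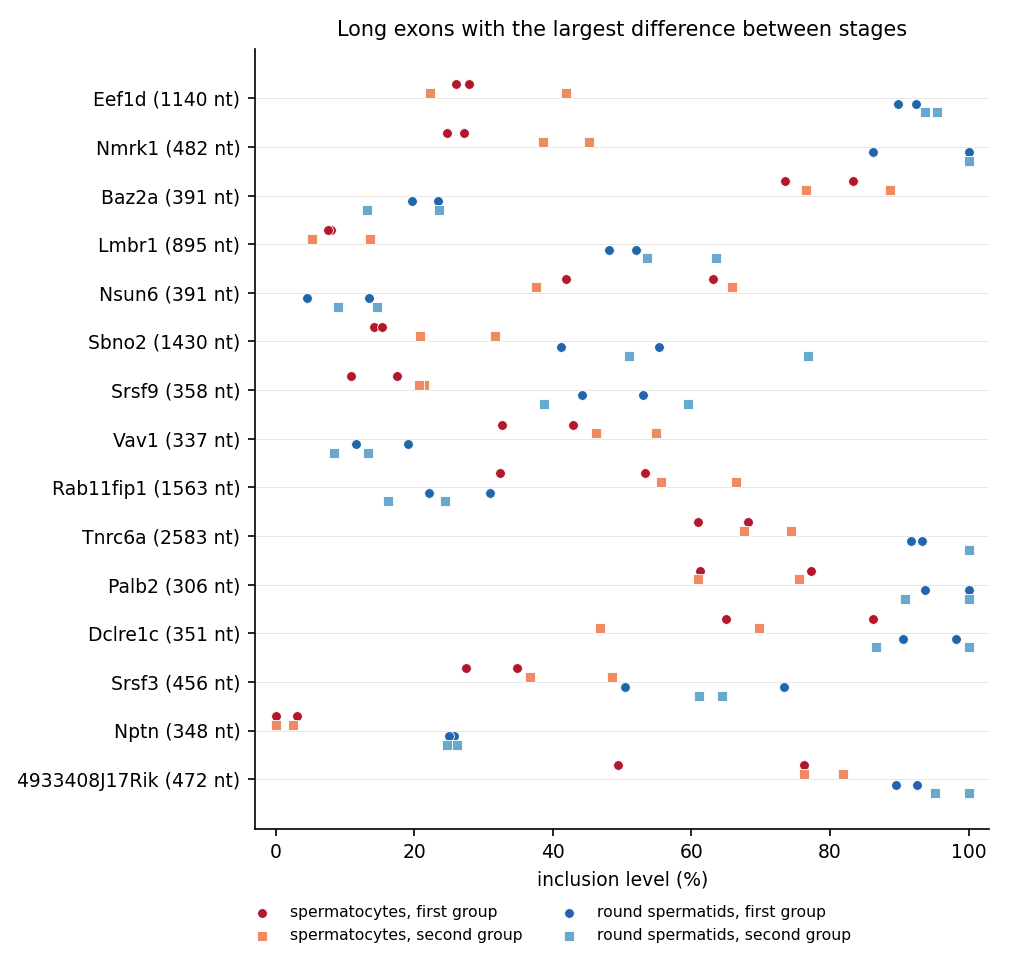
Inclusion level (horizontal axis, percent) in each of 8 libraries for the 15 called long exons with the largest stage difference among those whose libraries do not overlap between stages; circles are the first and squares the second sample group, reds spermatocytes and blues round spermatids. Baz2a, Nsun6, Vav1 and Rab11fip1 lie to the right in spermatocytes, and the other 11 exons lie to the right in round spermatids.

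Genes of splicing and RNA processing hosted 18 of the tested long exons, and 6 of these were called, 2 higher and 4 lower in spermatocytes, against 12.5% of all events. Of shorter exons of the same gene list, 62 of 281 were called, 32 higher and 30 lower. The 456-nt exon of Srsf3 (chr17:29039454-29039909, plus strand), which encodes an SR protein, was at 27.5%, 34.8%, 36.7% and 48.5% in spermatocytes. Round spermatids had 50.3%, 73.4%, 64.5% and 61.1%. All 4 round spermatid libraries lay above the spermatocyte ones, with a difference of -25.4 points (log2 odds -1.51, SE 0.23, limma adjusted p = 4.23e-09).

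The 358-nt exon of Srsf9 (chr5:115328347-115328704, plus strand), another SR protein gene, behaved alike in direction. Its levels were 10.9%, 17.6%, 21.4% and 20.6% in spermatocytes and 44.1%, 52.9%, 59.5% and 38.7% in round spermatids, a difference of -31.2 points (limma adjusted p = 2.58e-08). Tra2a, an SR-related regulator gene, had a 306-nt exon at 58.8%, 73.6%, 67.4% and 75.8% against 75.8%, 85.6%, 79.9% and 82.2%, groups that touch. Its call (adjusted p = 0.00361) was lost without the second library of the first round spermatid group (0.355), the second of the second round spermatid group (0.0753) or the first of the first spermatocyte group (0.0536). The 696-nt exon of Thrap3, which encodes an RNA-processing cofactor, was at 89.3% to 93.6% in spermatocytes and at 97.8% to 99.2% in round spermatids.

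Both exons of this list that were higher in spermatocytes were mostly skipped. The 1360-nt exon of Snrnp70 (chr7:45381825-45383184), which encodes the U1-70K protein of the U1 snRNP, had 31.1%, 22.7%, 19.4% and 21.2% in spermatocytes and 11.7%, 6.18%, 9.57% and 9.44% in round spermatids. It rested on 8771 skipping reads, and the limma adjusted p was 2.82e-25. The 1688-nt exon of Nktr (chr9:121738388-121740075), a gene of a large SR-rich cyclophilin, had 20.9%, 16.7%, 17.2% and 19.8% against 2.76%, 1.52%, 2.29% and 3.66% (limma adjusted p = 2.54e-40). No spermatocyte library of either exon overlapped a round spermatid one.

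Other exons of the list did not pass the test. The 391-nt exon of Cdk12, a kinase of the RNA polymerase II tail, was at 47.8% to 70.6% in spermatocytes and 52.5% to 59.0% in round spermatids (limma adjusted p = 0.54). The 300-nt exon of Upf2, a core factor of nonsense-mediated decay, was at 3.36% to 7.31% and at 2.97% to 7.25%. The Upf2 exon is the shortest that the length limit admits. Rbm4, which encodes a splicing regulator, had a 682-nt exon at 73.8% to 86.1% and at 73.8% to 85.5%.

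**Figure D4:**
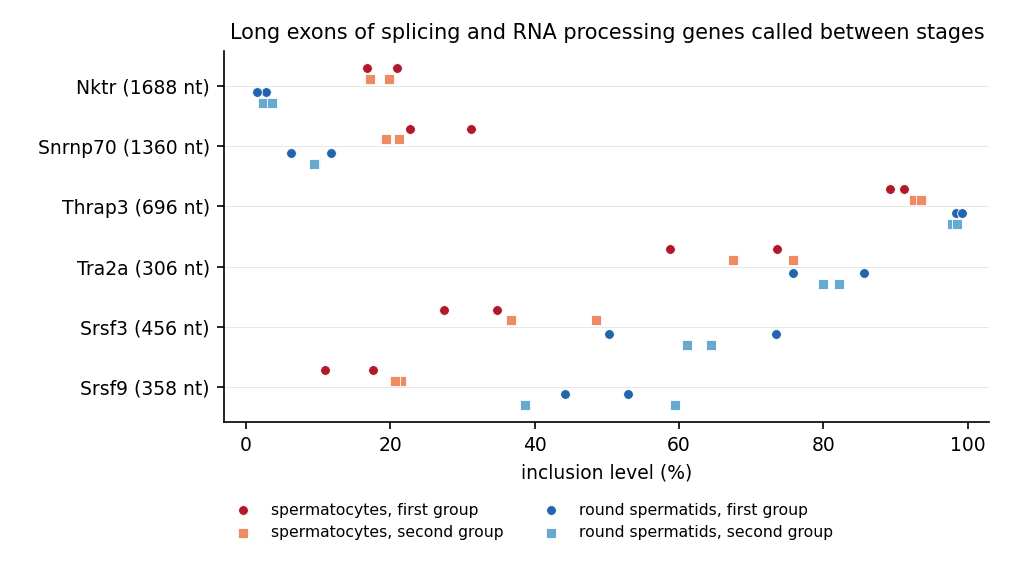
Inclusion level (horizontal axis, percent) in each of 8 libraries for the 6 called long exons hosted by splicing and RNA processing genes; circles are the first and squares the second sample group, reds spermatocytes and blues round spermatids. Nktr and Snrnp70 lie higher in spermatocytes, and Thrap3, Tra2a, Srsf3 and Srsf9 lie higher in round spermatids.

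Zinc finger transcription factor genes hosted 40 tested long exons, and 8 were called, 1 higher and 7 lower in spermatocytes, where all events gave 12.5% called, 5.96% higher and 6.5% lower. Of their 303 tested shorter exons 19 were called, 12 higher and 7 lower. Among the 8 were overlapping exons of 323 and 2096 nt in Zfp507, which share their end and their skipping reads. The shorter of these was at 80.1%, 70.7%, 83.2% and 72.7% in spermatocytes and at 100%, 90.1%, 95.6% and 89.5% in round spermatids. Similarly, exons of 2289 and 3217 nt in Zfp865 share a start, and the longer had 86.2% to 90.5% against 98.4% to 100%, with 33 skipping reads. The calls of these 4 exons were lost without the second library of the first round spermatid group (limma adjusted p from 0.084 to 0.126). The 323-nt exon was also lost without the second library of either spermatocyte group (0.0587 and 0.0515). The 942-nt exon of Zfp384 was mostly skipped, at 14.3% to 16.7% in spermatocytes and 17.6% to 30.4% in round spermatids. Zfp711, Zscan21 and Zfp62 made up the rest, and Zfp62 was the 1 that was higher in spermatocytes, with 3.94% to 8.07% against 1.52% to 5.34%.

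Few long exons of DNA repair and meiotic genes could be tested between stages. Of 5 tested in repair genes, 1 was called, the 306-nt exon of Palb2, which encodes the partner of the BRCA2 repair protein. It was at 77.2%, 61.3%, 60.9% and 75.5% in spermatocytes and at 93.7%, 100%, 100% and 90.8% in round spermatids, with 39 skipping reads (limma adjusted p = 0.045). The Palb2 call was lost without any of 6 of the libraries, with adjusted p-values of 0.0927 to 0.235. Dclre1c, which encodes the nuclease Artemis and was outside the list, had a 351-nt exon at 46.8% to 86.2% and at 86.6% to 100%. It was lost without the second library of the first spermatocyte group (0.0615) or of the first round spermatid group (0.0551).

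In the chromosome axis and cohesin list the 1 tested exon was called. It was the 772-nt exon of Smc6, a gene of the SMC5/6 complex, and it was skipped in nearly all transcripts, at 0.759%, 0.664%, 0.687% and 0.586% in spermatocytes and 1.26%, 1.30%, 1.54% and 0.907% in round spermatids. The 7 other long exons of the list in spermatocytes, among them those of Sycp2, Stag3, Wapl and Ankrd31, were included at 87.1% or more wherever they had reads.

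Chromatin regulators hosted 28 tested long exons, and the exons of Baz2a and Dot1l, a histone methyltransferase gene, were called. The 485-nt exon of Dot1l was at 98.3% to 99.8% in spermatocytes and 99.9% to 100% in round spermatids. Of 24 tested in genes of the centrosome, cilium and flagellum 3 were called, in Cep170, Cfap57 and Dnah7b, the largest being 3.41 points in Cfap57. That share equals the 12.5% of all events, and of the shorter exons of this list 95 of 734 were called. Genes of the piRNA pathway had 3 tested and 0 called, those of the acrosome and sperm 3 tested and 1 called, in Acrbp, and ubiquitin ligases and proteases 17 tested and 3 called, in Rnf216 and Usp54. Of the shorter exons, 22 of 288 were called in chromatin regulators, 17 of 109 in the piRNA list, 33 of 228 in the acrosome list and 66 of 490 in the ubiquitin list. Percentages this close to 100% rest on few skipping reads, 13 in Usp54 and 32 in Acrbp.

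A small set of long exons was skipped in almost all transcripts of both stages. In all, 47 exons lay under 10% in every one of the 8 libraries. Their median length was 427 nt, 29 were under 500 nt and 5 were of 2000 nt or more. The 5916-nt exon of Naca (chr10:128039171-128045086), an exon known from the muscle form of this ribosome-associated chaperone, was included at 0.0204% to 0.103% with 37725 skipping reads. It was still called between stages, with 0.0781% in spermatocytes and 0.0315% in round spermatids on average (limma adjusted p = 7.51e-09). The libraries of the stages overlapped, at 0.0478% to 0.103% in spermatocytes and 0.0204% to 0.0519% in round spermatids. Ank2 and Ank3 are known for giant exons of their neuronal ankyrin forms. The 6198-nt exon of Ank2 was at 1.61% to 3.40% in spermatocytes and 0.823% to 1.44% in round spermatids, and was called. The 7674-nt exon of Ank3, not among the 47, was at 5.62% to 17.1% and 6.597% to 10.1%, and was not called. The 3180-nt exon of Map4, which encodes a microtubule-associated protein, stayed at or under 0.229% in all 8 libraries. It was called higher in spermatocytes (limma adjusted p = 0.00417), though the libraries of the stages overlapped.

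A further 4 exons of this skipped group were higher in spermatocytes without overlap of the stages; they were chosen after their values were seen. The 383-nt exon of Kif2a, a microtubule-depolymerising kinesin gene, was at 2.10% to 3.999% in spermatocytes and at 0% to 0.182% in round spermatids. The 642-nt exon of Hk1, which encodes hexokinase 1, was at 1.67% to 4.43% and at 0.276% to 1.02%. The 348-nt exon of Bsg, which encodes the surface protein basigin, was at 0.19% to 0.409% and 0.0396% to 0.0831%, and the 375-nt exon of Tmem258 at 3.23% to 5.78% and 0.979% to 1.78%. Exons of the skipped group called lower in spermatocytes without overlap were those of 4933404O12Rik, Pcca, Ndufv3 and, given above, Smc6. The 340-nt exon of 4933404O12Rik was at 0.973% to 1.28% in spermatocytes and 3.55% to 7.89% in round spermatids. The 383-nt exon of Pcca was at 0.429% to 3.78% and 5.57% to 9.05%. The Hk1 exon and the 412-nt exon of Catsperg2, treated below, are among the 9 of the 146 called exons that hold an intron listed in a retained intron table. Such an intron lay in 9.48% of long exons in spermatocytes and 5.88% in round spermatids. Of shorter exons 0.109% and 0.105% held one, a description of exon classes of unequal length. Of the 56 tested long exons that hold such an intron 16.1% were called, against 14.6% of the 937 others.

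A pair of related genes moved in opposite directions and was also chosen after the values were seen. Safb and Safb2 encode scaffold attachment factors and lie next to each other on chromosome 17. The 577-nt exon of Safb was at 85.1%, 89.0%, 89.3% and 88.3% in spermatocytes and 74.8%, 73.9%, 72.9% and 83.1% in round spermatids (limma adjusted p = 4.74e-05). The 658-nt exon of Safb2 was at 69.1%, 67.8%, 77.1% and 75.7% against 89.3%, 87.5%, 91.7% and 92.5% (adjusted p = 1.18e-11). The stages did not overlap in either gene.

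Within stages, the targeted gene comes first. Its 357-nt exon (chr3:127546047-127546403, minus strand) was included at 99.8% or more in all 8 libraries. Its inclusion reads in spermatocytes were 1853 and 4362 (first group) against 13934 and 13273 (second group). Those in round spermatids were 2758 and 6699 against 13889 and 14813. A 125-nt cassette exon of Larp7 at chr3:127544154-127544278 had 17 and 18 inclusion reads against 6720 and 5947 in spermatocytes, and 3 and 14 against 6406 and 6198 in round spermatids. In both stages the first group was the one with few reads of this exon. No genotype was assigned to a group from these values.

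Between the sample groups of a stage, few long exons were called. In spermatocytes 8 of 1786 tested passed (0.448%), against 0.537% of all 61122 events and 0.54% of shorter cassette exons. Of the 8, 2 were higher in the first group and 6 were lower, where all events gave 0.139% higher and 0.398% lower. In round spermatids 2 of 1332 passed, both higher in the first group, against 0.131% of all 48060 events, 0.0437% higher and 0.0874% lower. At an unadjusted limma p under 0.05 there were 2819 of 33141 shorter exons in spermatocytes and 1691 of 25937 in round spermatids. Of the long exons there were 176 of 1786 and 90 of 1332. Leaving out a library changed these counts: without either library of the second group both counts were 0, and without a library of the first group they were 437 and 432 in spermatocytes and 248 and 133 in round spermatids. All 10 calls were lost when any 1 of the libraries of their stage was left out. Such a fit sets 2 libraries against 1 and assumes that the lone library varies like the others, with 1 residual degree of freedom per event moderated across events, so these counts do not measure how stable a call is.

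The mean inclusion level of long exons in spermatocytes was 89.6% and 89.8% (first group) against 91.2% and 91.2% (second group), a difference of -1.46 points. In round spermatids it was 88.5% and 88.4% against 89.4% and 88.8%, a difference of -0.656 points. Neither stage's groups overlapped. With 2 against 2 libraries the smallest possible exact permutation p is 0.333, which both reached, so the design cannot call it. Several marker sums also parted the groups. In spermatocytes the spermatogonial and Sertoli sums above were higher in both first-group libraries, as were the spermatocyte sums, 3456 and 2911 CPM against 2477 and 2164. Of the spermatocyte list Spo11 went the other way, 166 and 168 against 270 and 215, as did Ccna1, 301 and 356 against 410 and 459. Mlh3 overlapped between the groups. The elongating spermatid sums were lower in the first spermatocyte group, 2068 and 2374 against 3014 and 2831. In round spermatids the elongating sums were 12909 and 15069 CPM against 20621 and 16216, and the round spermatid sums 1150 and 1301 against 1458 and 1395. The round spermatid libraries of the first group had a higher sum of the spermatocyte markers, 880 and 901 against 663 and 828. Of these markers Spo11, at 40.2 and 37.4 against 48.0 and 44.5, and Meiob were lower there. The first-group Sertoli sums in round spermatids were 61.7 and 81.2 against 38.8 and 49.0. Those of Leydig, peritubular and immune cells were 28.2 and 19.98 against 16.6 and 14.9. The part of these sums in the group differences was not tested.

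The most significant long exon in spermatocytes was the 975-nt exon of Nasp, which encodes a histone chaperone whose long form is known from testis. It was the long exon with most reads in spermatocytes, 382784. Its levels were 98.4% and 99.3% against 99.8% and 99.8% (log2 odds -2.30, SE 0.37, limma adjusted p = 1.36e-06), with 286 skipping reads. In round spermatids it had 99.2% and 99.6% against 99.6% and 99.5% and was not called (0.641).

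The 713-nt exon of Zscan21, a zinc finger transcription factor gene, was at 87.96% and 90.4% against 98.2% and 97.5% (limma adjusted p = 3.38e-05). Its round spermatid levels were 97.0% and 96.4% against 99.6% and 98.9% and did not pass (limma adjusted p = 0.131). Lipe, which encodes hormone-sensitive lipase, had a 303-nt exon at 68.6% and 79.1% against 97.0% and 91.5%, the largest difference of the 8 at -20.4 points. It rested on 78 skipping reads. Catsperg2, which encodes a part of the CatSper calcium channel of sperm, had a 412-nt exon at 68.3% and 66.6% against 73.5% and 80.0%. This exon also differed by stage, with 81.5% to 88.2% in round spermatids. The 707-nt exon of Gstt2, a glutathione transferase gene, was at 85.2% and 86.1% against 93.5% and 95.3%, and the 727-nt exon of Lrriq3 at 91.7% and 93.6% against 97.4% and 96.9%.

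Both exons that were higher in the first spermatocyte group were rarely included. The 2976-nt exon of Ncoa6, a nuclear receptor coactivator gene, was at 13.1% and 7.94% against 4.12% and 6.20% (limma adjusted p = 0.00409). Wnk1, which encodes a kinase of ion transport, had a 1236-nt exon at 0.682% and 0.364% against 0.107% and 0.081% (limma adjusted p = 0.000212).

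In round spermatids the 1854-nt exon of Ubox5, a ubiquitin ligase gene, was at 54.5% and 73.0% against 21.5% and 50.2% (limma adjusted p = 0.0478), with 65 skipping reads. In spermatocytes the Ubox5 exon was at 26.4% to 29.4% in all 4 libraries. The groups of each of the 10 called exons did not overlap.

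**Figure D5:**
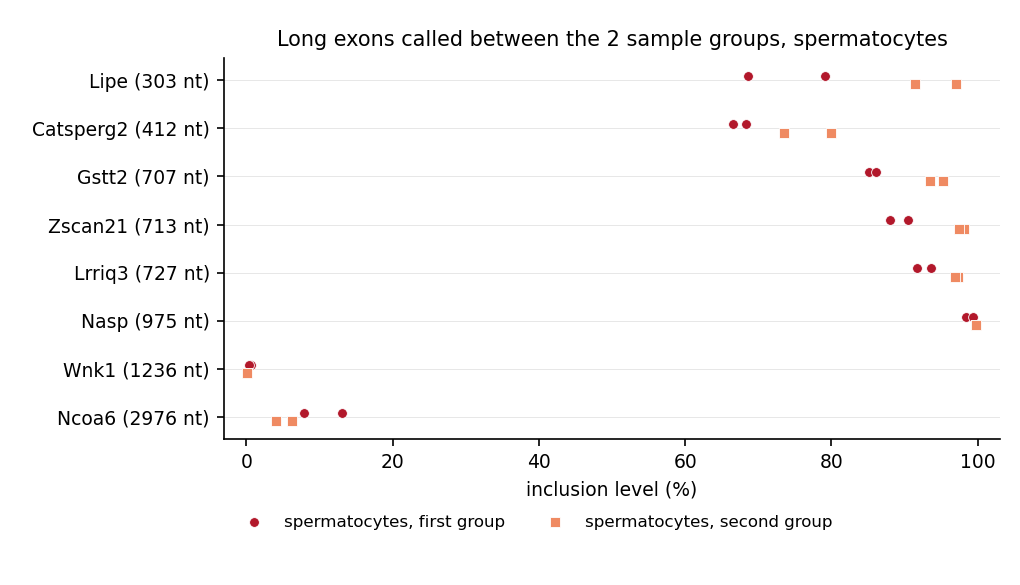
Inclusion level (horizontal axis, percent) by library for the 8 long exons called between the sample groups in spermatocytes; circles are the first and squares the second sample group. Ncoa6 and Wnk1 lie higher in the first group and the other 6 lie lower.

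The authors' deposited table has its own test of the sample groups. At its FDR below 0.05 and a level difference of at least 0.1, it called 48 of 1856 long exons in spermatocytes (2.59%), against 2.5% of all events. Of the 48, 2 were higher and 46 lower in the first group. In the round spermatid tables, the authors' deposited table called 13 of 1412 (0.921%), 2 higher and 11 lower, against 1.47% of all events. The directions of the authors' calls over all events were not counted, so these splits cannot be called particular to long exons. Of the authors' calls on long exons, 1 in spermatocytes and 0 in round spermatids were also called with limma.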

How the data were processed

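The deposited tables, 1 per stage and event type, hold inclusion and skipping read counts, form lengths, inclusion levels as fractions, a level difference (a signed score) and p-values with FDR, per the file headers. The authors aligned reads with STAR to mm10, per the submitters' processing notes; no source used here gives the version or the event counter's settings. Each deposited count cell joins the counts of 2 libraries. The skipping form is 149 nt long in every cassette exon row, and the inclusion form adds the exon length, so exon-body reads count towards inclusion. The sources used here pair no exon with a coding or UTR annotation, so none is given.

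Inclusion levels were recomputed from counts and form lengths. An exon with several rows was represented by its row with most reads. Events with at least 10 reads per library on average and a read of each form were tested with limma 3.58.1 (R 4.3.3) on the log2 odds of inclusion, with an average of 0.5 reads added to each form, scaled to the event's reads per library. Weights were inverse counting variances, and eBayes followed a trend on the reads of the rarer form. Adjusted p-values are Benjamini-Hochberg over all events of the 5 types. The stage contrast used a fit of 4 groups over 8 libraries. Where a library had no read of an event, that library was left out of the event's fit. The fit was tested on simulated data, with changes placed only in events with many reads of the rarer form. Its recovery of changes in exons with few skipping reads was not tested. Library means were compared with exact permutation tests.

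The rule for the exons, the gene lists and this fit were chosen with earlier results of these data known. Named exons are all called ones up to 15 per comparison, otherwise the 15 with the largest difference among called exons whose libraries do not overlap, the longest, those with most reads, and those of listed genes with at least 10 points; others were chosen after their values were seen. Of the called exons, 1 round spermatid exon is counted and is not reported here. Genes that overlap or lie antisense cannot be told apart, as counting by strand is not stated. Alternatives were another trend, prior, weighting, moderation, filter, model, row choice and length limit, single groups, and leaving out each library.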

Additional observations from a re-analysis of the deposited data

How the results depend on the processing

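No paired analysis was possible because the table columns carry no replicate numbers. The 146 calls between stages became 84 with a trend on total reads, 84 without count weights, 97 with exons of 400 nt or more and 40 in the second sample group alone, and the cause was not tested beyond the fewer exons or libraries of the last 2. Leaving out each library gave 77 to 124, with the lone library of its group assumed to vary like the others, here and below. In spermatocytes the 8 calls became 0 with a trend on total reads, 1 without weights and 4 with a quasi-binomial model, and leaving out each library gave 0 to 437. In round spermatids the 2 calls became 0 with a trend on total reads, without weights or with robust moderation, 1 with a quasi-binomial model and 1 with exons of 400 nt or more, and leaving out each library gave 0 to 248. The stage difference of the mean level, -1.15 points, was -0.924 with at least 20 reads (exact permutation, p = 0.0571), -1.04 with no filter on reads (exact permutation, p = 0.0857), -0.872 with the median (exact permutation, p = 0.171) and -1.13 with the row with most skipping reads (exact permutation, p = 0.0571). Leaving out each library gave -1.37 to -0.895, with p-values of 0.0286 to 0.114. The difference from shorter exons, 2.11 points, was -0.0737 with the median and 1.98 to 3.53 otherwise. Of the 22 exons named for the stage difference, 8 kept direction and call under every alternative run (Baz2a, Eef1d, Lmbr1, Nktr, Nsun6, Snrnp70, Srsf9 and Vav1), 14 lost the call under at least 1, and 0 reversed. The other settings, among them counting an exon as called by any of its rows and counting overlapping exons once, both chosen after seeing the data, kept counts within 1.5 times. Few skipping reads limit the precision of most exons near 100%.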
